A study of Mus musculus with 12 samples.

Results

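The 10 genes described here belong to the interleukin 1 axis and to the inflammasome. They are the ligands Il1b and Il18, the receptor antagonist Il1rn, the receptor chains Il1rap and Il1r2, the sensor Nlrp3, the adaptor Pycard, the caspases Casp1 and Casp4 and the pore-forming protein gene Gsdmd. They were picked by symbol, and all 10 were among the 13935 rows of the table. RNA was sequenced from neutrophils sorted out of mouse femoral marrow by CD45, CD11b and Ly6G, in 4 groups of 3 libraries. The mice were Socs3fl/fl, with loxP sites around Socs3 in both alleles, or LysMcre Socs3fl/fl, which carry the same floxed alleles and Cre recombinase from the lysozyme 2 promoter, active in myeloid cells. Neutrophils of each genotype were held for 8 h in medium with serum, with or without 10 ng/ml of recombinant mouse G-CSF (granulocyte colony-stimulating factor, which signals through STAT3). The labels give no ages and do not say whether the 3 libraries of a group are from different animals, so p-values measure the spread between libraries, which may be technical.

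Socs3, the feedback inhibitor of STAT3 signalling that the Cre is meant to delete, was not lower in the libraries carrying a LysMcre label. Its level without G-CSF was 224.6 ± 23.1 normalized counts in floxed and 292.4 ± 34.5 in LysMcre-labelled libraries, and with G-CSF 19504 ± 1635 and 37335 ± 1219 (SD, n = 3 each). A value per gene cannot show whether the floxed part was read, so this neither shows nor excludes the deletion. Lyz2, whose locus holds the Cre, fell into separate ranges by genotype, at 44425 or more in every floxed and 6602 or less in every LysMcre-labelled library. Libraries are therefore called floxed and LysMcre-labelled throughout. Between 19495754 and 26472118 reads per library were recovered from the values, and each of the 10 genes had at least 58 reads in every library. All 11 neutrophil markers listed were present, with summed levels of 1551600 to 1978200 normalized counts. S100a8 and S100a9 (named after their values were seen) were the highest of the 11 in every group and rose with G-CSF. Single markers moved within that sum: 4 of the 11 rose and 6 fell with G-CSF in each genotype. Of all genes 24.1% rose and 24.6% fell in floxed and 31.1% and 31.6% in LysMcre-labelled cells. With G-CSF 2 markers were higher and 6 lower in LysMcre-labelled than in floxed libraries, beside 17.1% and 18.9% of all genes. The part of these markers in the results was not tested.

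Interleukin 1 beta is made as an inactive precursor and signals, once cut and released, through a receptor that needs the accessory chain encoded by Il1rap. The antagonist encoded by Il1rn occupies that receptor without signalling, and the decoy receptor encoded by Il1r2 binds interleukin 1 and has no signalling domain. Inflammasomes are assemblies in which a sensor such as NLRP3 gathers the adaptor ASC (gene Pycard) and caspase-1, which cuts the precursors of interleukin 1 beta and interleukin 18. Casp4 encodes mouse caspase-11, which responds to lipopolysaccharide inside cells. Both caspases cut gasdermin D, whose fragment forms pores in the plasma membrane. In neutrophils, serine proteases of the granules can also cut the interleukin 1 beta precursor.

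Promoter windows from RefSeq (GRCm38.p6, which is the mm10 assembly), 250 bases before to 50 after a transcript start, were found for 9 of the 10 genes. The windows of the 4 genes with the largest G-CSF rises in floxed libraries are shown 5′ to 3′ on the gene's own strand, because the results below turn on these genes. Capitals mark matches to 3 motifs searched on both strands: a STAT motif (TTCNNNGAA), a C/EBP motif (TTGCNNAA) and the NF-kappaB consensus.
Il1rap (chr16:26581455-26581754, plus strand): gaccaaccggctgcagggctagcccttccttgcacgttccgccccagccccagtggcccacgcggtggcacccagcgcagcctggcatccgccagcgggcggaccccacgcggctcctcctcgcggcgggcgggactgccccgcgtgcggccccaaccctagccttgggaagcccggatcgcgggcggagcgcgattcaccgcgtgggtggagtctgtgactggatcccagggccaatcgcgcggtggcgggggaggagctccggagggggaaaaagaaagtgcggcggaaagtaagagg
Il1b (chr2:129371090-129371389, minus strand): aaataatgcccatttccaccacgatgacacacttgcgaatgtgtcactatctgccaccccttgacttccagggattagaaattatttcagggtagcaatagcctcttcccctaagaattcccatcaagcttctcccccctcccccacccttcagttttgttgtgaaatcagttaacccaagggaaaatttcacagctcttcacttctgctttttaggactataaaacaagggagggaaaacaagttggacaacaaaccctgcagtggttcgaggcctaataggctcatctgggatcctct
Casp4 (chr9:5308599-5308898, plus strand): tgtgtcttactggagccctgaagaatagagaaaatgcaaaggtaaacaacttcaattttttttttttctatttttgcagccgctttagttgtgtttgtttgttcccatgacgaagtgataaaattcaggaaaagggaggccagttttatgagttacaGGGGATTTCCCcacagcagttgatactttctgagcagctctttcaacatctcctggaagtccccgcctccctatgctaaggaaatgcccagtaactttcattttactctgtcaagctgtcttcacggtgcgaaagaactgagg
Il1r2 (chr1:40085843-40086142, plus strand): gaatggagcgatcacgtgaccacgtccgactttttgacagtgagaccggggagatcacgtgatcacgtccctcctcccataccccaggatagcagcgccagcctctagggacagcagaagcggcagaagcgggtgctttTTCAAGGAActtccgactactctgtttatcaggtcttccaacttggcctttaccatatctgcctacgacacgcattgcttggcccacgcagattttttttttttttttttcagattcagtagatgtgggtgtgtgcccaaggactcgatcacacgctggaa
The Il1r2 window held 1 STAT match, TTCAAGGAA, which begins 111 bases before the start. Casp4 held a pair of overlapping NF-kappaB matches, GGGGATTTCC and GGGATTTCCC, beginning 93 and 92 bases before the start. The windows of Il1rap and Il1b held none of the 3 motifs, which says only that these letters are not in these 300 bases. RefSeq starts Il1r2 inside the GENCODE gene, at base 40086093. Of 32851 RefSeq windows of this length, 8.30% held the STAT motif, 10.8% the C/EBP motif and 4.51% the NF-kappaB consensus. Among the other members with a window, 1 of 2 Nlrp3 windows held an NF-kappaB match and the Pycard window a C/EBP match; those of Il1rn, Il18 and Casp1 held none.

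Il1b (ENSMUSG00000027398.13, mm10 chromosome 2, 129364570 to 129371139, minus strand) rose with G-CSF in both genotypes. Without G-CSF it was at 1845, 1733 and 1392 normalized counts in floxed and 2280.0, 2307 and 1178 in LysMcre-labelled libraries. G-CSF took it to 13550.2, 13695 and 14874 in floxed and 18526, 21415 and 19798 in LysMcre-labelled libraries. In bulk RNA, fewer cells of a type and less RNA per cell cannot be told apart. Every library with G-CSF lay far above every library without it, and LysMcre-labelled replicate 3 was the lowest of the 6 untreated libraries. The rise was 8.52-fold in floxed (log2 3.09, SE 0.19, limma adjusted p = 2.42e-09) and 10.8-fold in LysMcre-labelled cells (log2 3.44, SE 0.19, limma adjusted p = 2.97e-10). With G-CSF the LysMcre-labelled libraries all stood above the floxed ones, but the difference did not pass the threshold of 0.05 (log2 0.50, SE 0.19, limma adjusted p = 0.0504, 95% interval 0.10 to 0.91). That p depends on the untreated libraries, which share the estimate of spread: without LysMcre-labelled untreated replicate 3 it was 0.000441, without replicate 1 or 2 of that group 0.0386 and 0.0389, without floxed untreated replicate 3 0.0460, and with only the 2 G-CSF groups fitted 0.00035. With every library kept, edgeR also passed it (adjusted p = 0.0286). Of all 24 alternatives 14 did not pass, with adjusted p up to 0.284 and log2 differences from 0.30 to 0.55 over the 24. An antisense gene, Il1bos, overlaps Il1b, and the strand setting of the counting is not given in the sources used here. Il1bos was at 42.4 ± 6.74, 50.05 ± 10.7, 121 ± 11.8 and 185 ± 12.8 normalized counts (SD, n = 3 each) in floxed and LysMcre-labelled libraries without and then with G-CSF. Whether reads of Il1b and Il1bos were exchanged is not known.

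Il18 (ENSMUSG00000039217.13, chromosome 9, 50554827 to 50581840, plus strand), the other caspase-1 substrate among the ligands, stayed low in every library. Its range was 61.8 to 79.7 normalized counts in floxed and 65.0 to 71.5 in LysMcre-labelled libraries without G-CSF, and 79.1 to 104 and 87.0 to 109 with it. Ordered by their means (LysMcre-labelled untreated, floxed untreated, floxed G-CSF, LysMcre-labelled G-CSF), each group overlapped the next. Il18 passed the test for G-CSF in LysMcre-labelled cells alone (log2 0.46, SE 0.15, limma adjusted p = 0.0173), a call lost without LysMcre-labelled untreated replicate 3 (adjusted p = 0.0540) or G-CSF replicate 2 (0.0834) and with the sums of all libraries made equal (0.318; called equal totals from here on). The interval in floxed cells ran from -0.05 to 0.62, and the difference between the 2 responses did not pass (limma adjusted p = 0.649 for the interaction). Bco2 and Tex12 overlap Il18 on the other strand.

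Il1rn (ENSMUSG00000026981.15, chromosome 2, 24336853 to 24351494, plus strand), the antagonist gene, responded to G-CSF in LysMcre-labelled libraries, and no change was called in floxed ones. In floxed libraries it was at 3425, 3221 and 3563 normalized counts without and 3246, 3354 and 3390.5 with G-CSF, ranges that overlap. In LysMcre-labelled libraries it went from 2960.4, 3234 and 3239 to 10068, 9415 and 10405. The lowest of these last 3 was above every other library of the study. The rise in LysMcre-labelled cells was 3.17-fold (log2 1.66, SE 0.06, limma adjusted p = 1.17e-12), while the floxed difference was -0.03 on the log2 scale with a 95% interval of -0.15 to 0.09. The 2 responses differed by 1.69 on the log2 scale (SE 0.08, limma adjusted p = 1.13e-08 for the interaction). Secreted and intracellular forms of the antagonist start at different exons, and a value per gene does not tell them apart.

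Both receptor chain genes rose with G-CSF in each genotype, and rose further in LysMcre-labelled libraries. Il1rap (ENSMUSG00000022514.14, chromosome 16, 26581704 to 26730117, plus strand) was at 406, 394 and 412 normalized counts in floxed and 415, 390.2 and 354 in LysMcre-labelled libraries before G-CSF. With G-CSF the floxed libraries held 9910.3, 10542 and 10407 and the LysMcre-labelled ones 33468, 34942 and 36412. The untreated ranges overlapped, and with G-CSF every LysMcre-labelled library had over 3 times the level of any floxed one. The rises were 25.4-fold in floxed (log2 4.67, SE 0.06, limma adjusted p = 1.11e-16) and 90.3-fold in LysMcre-labelled cells (log2 6.50, SE 0.06, limma adjusted p = 1.31e-18), the rise of rank 45 and of rank 31 among the 13915 genes tested. The difference between these responses was 1.83 (SE 0.08, limma adjusted p = 1.13e-08 for the interaction). Il1rap has 7 annotated transcripts, some for a soluble form, which this value sums. An antisense gene with few reads, Gm20319, overlaps it and reached 111 ± 14.4 normalized counts (SD, n = 3) in LysMcre-labelled libraries with G-CSF.

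Il1r2 (ENSMUSG00000026073.13, chromosome 1, 40074079 to 40125231, plus strand), the decoy, was at 1087, 995 and 1151 normalized counts in the floxed libraries and 887, 931 and 862 in the LysMcre-labelled ones without G-CSF. Under G-CSF it reached 5664, 5947 and 5689 in floxed and 16133, 19199 and 21259 in LysMcre-labelled libraries. No 2 groups overlapped: LysMcre-labelled cells were lowest without G-CSF and highest with it. The untreated difference did not pass (log2 -0.27, SE 0.08, limma adjusted p = 0.957). The rise was 5.35-fold in floxed (log2 2.42, SE 0.08, limma adjusted p = 3.35e-12) and 20.98-fold in LysMcre-labelled neutrophils (log2 4.39, SE 0.08, limma adjusted p = 2.23e-15), and the responses differed by 1.97 (SE 0.12, limma adjusted p = 4.74e-08 for the interaction). A pair of genes overlaps Il1r2, the antisense Gm16894 and the same-strand Gm37347, at 155 ± 28.4 and 429.6 ± 31.5 normalized counts (SD, n = 3) in LysMcre-labelled libraries with G-CSF, and how reads were split between them is not known.

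**Figure D1:**
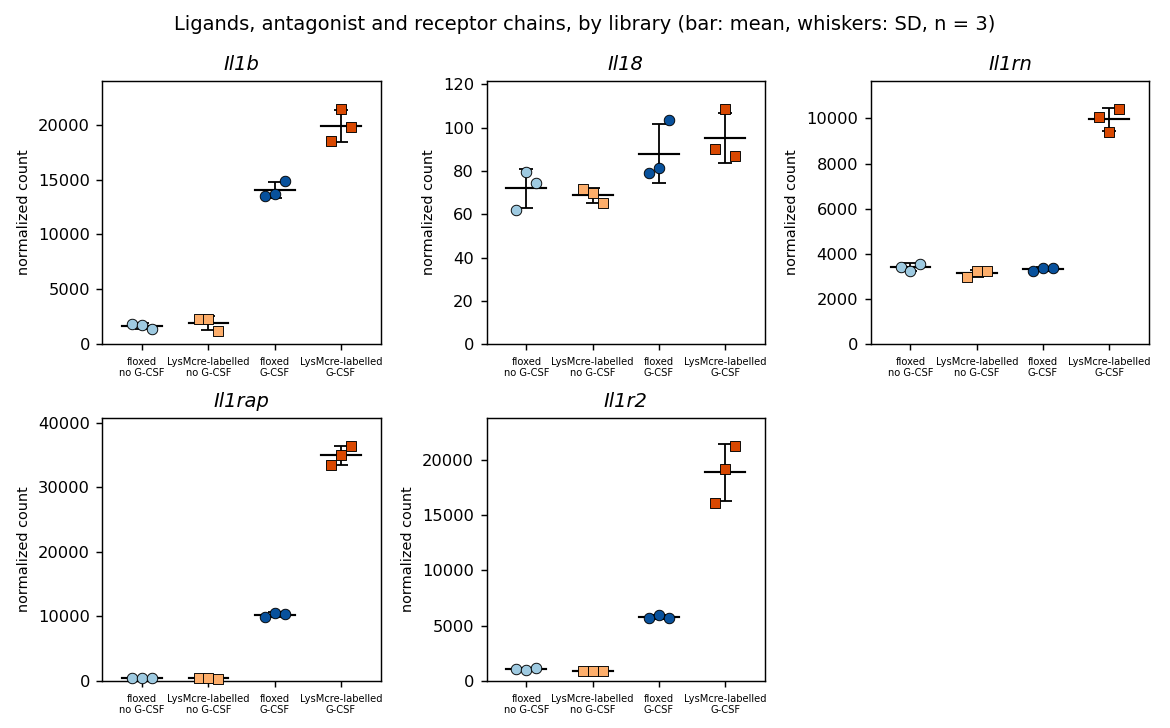
Normalized counts (vertical axis, from 0) of the ligands Il1b and Il18, the antagonist Il1rn and the receptor chains Il1rap and Il1r2 in the 12 libraries; points are libraries, bars group means and whiskers SD (n = 3). Il1rn is raised in the LysMcre-labelled G-CSF libraries alone, whereas Il1b, Il1rap and Il1r2 are raised with G-CSF in both genotypes.

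Per library, Il1b and Il1rn stood in a different ratio in each G-CSF group. The Il1b to Il1rn ratio was 0.539, 0.538 and 0.391 in floxed and 0.770, 0.713 and 0.364 in LysMcre-labelled libraries without G-CSF. It was 4.17, 4.08 and 4.39 in floxed and 1.84, 2.27 and 1.90 in LysMcre-labelled libraries with G-CSF. The ratio was thus higher in all 6 libraries with G-CSF than in any untreated one, and the LysMcre-labelled G-CSF libraries lay between the other groups with no overlap. The ratio of Il1rap to Il1r2, in contrast, was 1.78 ± 0.0410 in floxed and 1.87 ± 0.186 in LysMcre-labelled libraries with G-CSF (SD, n = 3), from 0.376 ± 0.0190 and 0.433 ± 0.0313 without it. These ratios are of normalized counts not divided by length, so they compare libraries, not the amounts of the 2 transcripts, and are given without a test.

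**Figure D2:**
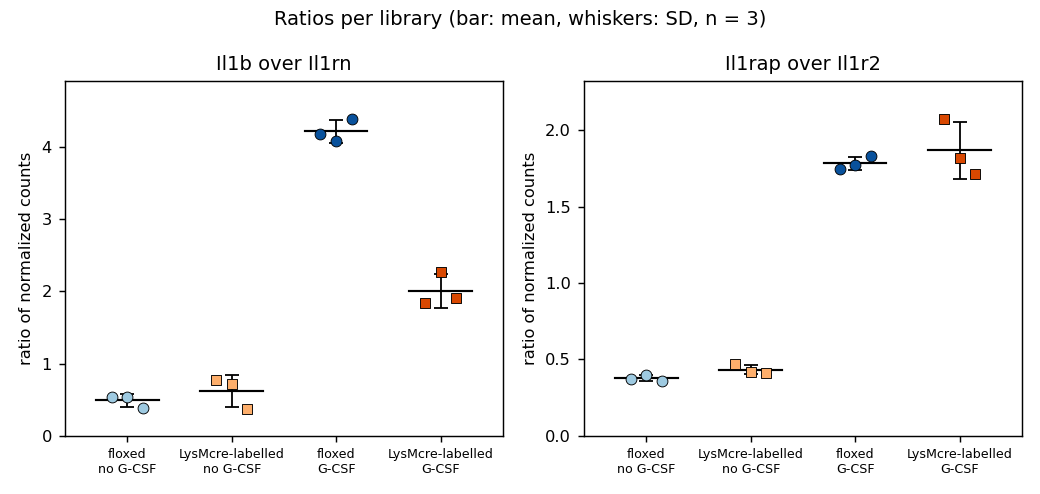
Ratio of normalized counts of Il1b over Il1rn (left) and of Il1rap over Il1r2 (right) in each of the 12 libraries, with group means and SD (n = 3). With G-CSF the Il1b to Il1rn ratio is 4.22 ± 0.156 in floxed and 2.01 ± 0.235 in LysMcre-labelled libraries, and the Il1rap to Il1r2 ratios overlap.

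Among the inflammasome genes, the sensor and the adaptor went down with G-CSF. Nlrp3 (ENSMUSG00000032691.14, chromosome 11, 59541568 to 59566956, plus strand) was at 3196, 3364 and 2837 normalized counts in floxed and 3480.0, 3752 and 2587 in LysMcre-labelled libraries without G-CSF. Under G-CSF the floxed libraries held 2119, 2045 and 2247 and the LysMcre-labelled ones 1472, 1566 and 1674. All 6 treated libraries lay below all 6 untreated ones, and the LysMcre-labelled treated libraries were the lowest. Nlrp3 fell in floxed (log2 -0.55, SE 0.11, limma adjusted p = 6e-04) and in LysMcre-labelled cells (log2 -1.04, SE 0.11, limma adjusted p = 5.78e-07), and with G-CSF it was lower in the latter (log2 -0.44, SE 0.11, limma adjusted p = 0.00465). The interaction passed narrowly (log2 -0.49, SE 0.15, limma adjusted p = 0.0314) and was lost in 7 of 23 alternatives, with adjusted p up to 0.0908; 6 of these left out 1 library, and the seventh used a constant prior. The 6 libraries were floxed untreated replicate 3, floxed G-CSF replicate 3, and replicates 1 and 2 of both LysMcre-labelled groups.

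Pycard (ENSMUSG00000030793.4, chromosome 7, 127989708 to 127993867, minus strand) was at 463, 454 and 503 normalized counts in floxed libraries without G-CSF and at 291, 289.8 and 315 with it. In LysMcre-labelled libraries it was at 407, 434 and 501 without and 290.1, 289 and 312 with G-CSF. All treated libraries lay below all untreated ones, and the genotypes overlapped in each condition. It fell in both (log2 -0.66, SE 0.09, limma adjusted p = 1.14e-05; and log2 -0.58, SE 0.09, limma adjusted p = 2.45e-05). The genotype difference with G-CSF was -0.01 on the log2 scale, with a 95% interval of -0.19 to 0.18, and the difference between the responses had an interval of -0.18 to 0.34. Gm45205, not analysed here, overlaps Pycard on the other strand.

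Monocytes and macrophages also use these genes. All 10 monocyte and macrophage markers listed were in the table and none was at 0. Their summed level was 22941 to 24343 normalized counts in floxed and 22241 to 25213 in LysMcre-labelled libraries without G-CSF, and 18177 to 22853 and 16072 to 19756 with it. The mean of Ly6c2 (named after its values were seen) fell from 11062 to 4871 in floxed and from 10061 to 2254 in LysMcre-labelled libraries. That is more than the mean sum fell. Of the 10 markers 6 rose and 2 fell in floxed and 4 rose and 2 fell in LysMcre-labelled cells with G-CSF. Between the genotypes with G-CSF 1 was higher and 1 lower. The shares of all genes were, in that order, 24.1% and 24.6%, 31.1% and 31.6%, and 17.1% and 18.9%. Summed T and NK cell markers (4 of 5 in the table) were at 315.2 to 425.2 without and 105.2 to 177.7 with G-CSF, but only 1 of these 4, Cd3d (named after its values were seen), passed with G-CSF in either genotype. Summed B cell markers (4 of 4) were at 2277 to 3834 over all libraries. Dendritic cell markers (3 of 5) summed to 433.5 to 622.6 and erythroid markers (2 of 4) to 115.6 to 971.2 over all libraries. Markers of eosinophils, basophils and mast cells (5 of 5) summed to 1397 to 2674 without and 2673 to 3295 with G-CSF, and 2 of 5 rose in floxed and 1 of 5 in LysMcre-labelled cells. The part of these cells in the results was not tested.

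The 2 inflammatory caspase genes lie side by side on chromosome 9, 1562 bases apart, and rose by very different amounts. Casp4 (ENSMUSG00000033538.13, 5308828 to 5336783, plus strand) was at 423, 400.0 and 419.7 normalized counts in the floxed libraries and 366, 347 and 376 in the LysMcre-labelled ones without G-CSF. Under G-CSF it stood at 2895, 2859 and 2896 in floxed and at 4396, 4551 and 4426 in LysMcre-labelled libraries. No groups overlapped, and the order was that of Il1r2. Casp4 rose 6.95-fold in floxed (log2 2.80, SE 0.05, limma adjusted p = 5.53e-15) and 12.3-fold in LysMcre-labelled cells (log2 3.62, SE 0.05, limma adjusted p = 1.42e-16), a difference of 0.82 between responses (SE 0.07, limma adjusted p = 1.68e-06 for the interaction).

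Casp1 (ENSMUSG00000025888.5, 5298517 to 5307265, plus strand), the caspase that cuts both ligand precursors, was at 801, 815 and 855 normalized counts in floxed and 795, 769 and 790.1 in LysMcre-labelled libraries without G-CSF. Under G-CSF the floxed libraries held 1172, 1094 and 1175 and the LysMcre-labelled ones 1029.8, 1017 and 1004. The treated libraries lay above the untreated ones, and the genotypes did not overlap in either condition. Its rise was 1.39-fold in floxed (log2 0.48, SE 0.05, limma adjusted p = 2.48e-06) and 1.30-fold in LysMcre-labelled cells (log2 0.37, SE 0.05, limma adjusted p = 2e-05). With G-CSF it was lower in the LysMcre-labelled cells (log2 -0.17, SE 0.05, limma adjusted p = 0.0206). That small difference lost its call without floxed G-CSF replicate 1 (adjusted p = 0.0641) or 3 (0.0655), without LysMcre-labelled G-CSF replicate 2 (0.0530) or 3 (0.0539), and with only the 2 groups fitted (0.0590). Under equal totals the LysMcre-labelled rise was 0.11 on the log2 scale and did not pass (adjusted p = 0.116).

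Gsdmd (ENSMUSG00000022575.5, chromosome 15, 75862327 to 75867408, plus strand), which encodes the pore protein both caspases cut, was at similar levels in all groups. Its ranges were 3597 to 3778 and 3503 to 3666 normalized counts in floxed and LysMcre-labelled libraries without G-CSF, and 3535 to 3763 and 3367 to 3627 with it. All groups overlapped. The G-CSF differences were -0.02 (95% interval -0.12 to 0.08) in floxed and -0.03 (-0.14 to 0.07) in LysMcre-labelled cells on the log2 scale. Gsdmd depended on the scaling: in LysMcre-labelled cells the G-CSF difference passed as lower under quantile normalization (-0.18) and equal totals (-0.29), where the median of all genes was -0.02 and -0.26.

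**Figure D3:**
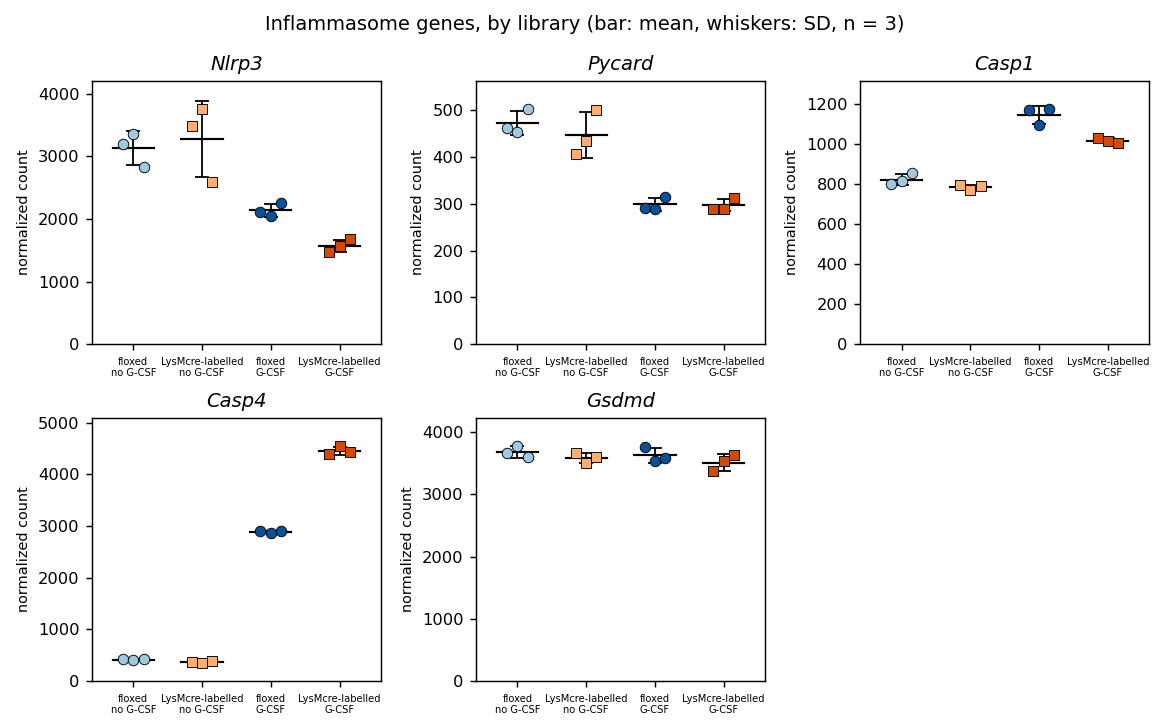
Normalized counts (vertical axis, from 0) of Nlrp3, Pycard, Casp1, Casp4 and Gsdmd in the 12 libraries; points are libraries, bars group means and whiskers SD (n = 3). Casp4 rises from 414.3 to 2883 in floxed and from 363.1 to 4458 in LysMcre-labelled libraries, Nlrp3 and Pycard are lower with G-CSF, and the Gsdmd groups overlap.

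Between genes, levels were compared per kilobase of exons annotated in GENCODE M21. Without G-CSF Gsdmd stood highest of the 10, at 1548 ± 38.6 normalized counts per kilobase in floxed and 1510 ± 34.5 in LysMcre-labelled libraries (SD, n = 3). With G-CSF Il1b stood highest, at 7362 ± 381 in floxed and 10442 ± 759 in LysMcre-labelled libraries. In the latter Il1r2 followed at 9887 ± 1352, which is within the spread of Il1b. Pycard was the lowest of the 10 with G-CSF, at 78.7 ± 3.77 and 78.2 ± 3.48. Il18 was next, at 85.4 ± 13.1 and 92.3 ± 11.3. In floxed libraries the ranges of these genes overlapped, at 76.3 to 83.0 for Pycard and 76.7 to 100.5 for Il18. These places were the same when the longest principal transcript of each gene was used as its length. For Pycard this was bound to hold. Its length is 3800 bases either way, and no other gene's principal transcript is longer than its exons.

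Counted over the 10 genes, G-CSF raised 5 and lowered 2 in floxed cells, where limma at an adjusted p under 0.05 called 24.1% of all 13915 genes higher and 24.6% lower. The 5 were Il1rap, Il1b, Casp4, Il1r2 and Casp1, and the 2 were Pycard and Nlrp3. In LysMcre-labelled cells 7 rose, with Il1rn and Il18 added, and the same 2 fell, against 31.1% and 31.6% of all genes. Between the genotypes with G-CSF 4 were higher (Il1rap, Il1r2, Il1rn and Casp4) and 2 lower (Nlrp3 and Casp1), against 17.1% and 18.9%. The interaction was positive for Il1r2, Il1rap, Il1rn and Casp4 and negative for Nlrp3, 4 and 1 of 10, against 10.9% and 11.5%. Under equal totals, 28.2% rather than 47.5% of all genotype calls with G-CSF were higher, and 38.5% rather than 49.5% and 31.2% rather than 49.6% of the G-CSF calls in floxed and LysMcre-labelled cells. For the interaction that share was 23.0% rather than 48.6%. That scaling moved the median of all genes to -0.13 between genotypes with G-CSF, -0.09 and -0.26 for G-CSF in floxed and LysMcre-labelled cells and -0.18 for the interaction; Il1rap, Il1r2, Il1rn, Casp4, Nlrp3 and Pycard kept their direction in these comparisons where called. The median log2 difference of the 10 genes was 0.38 for G-CSF in floxed and 1.06 in LysMcre-labelled cells, beside 0.00 for all genes in each. It was 0.31 between the genotypes with G-CSF and 0.26 for the interaction, beside -0.01 for all genes in each. The comparisons share libraries, so their values are not independent of each other.

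**Figure D4:**
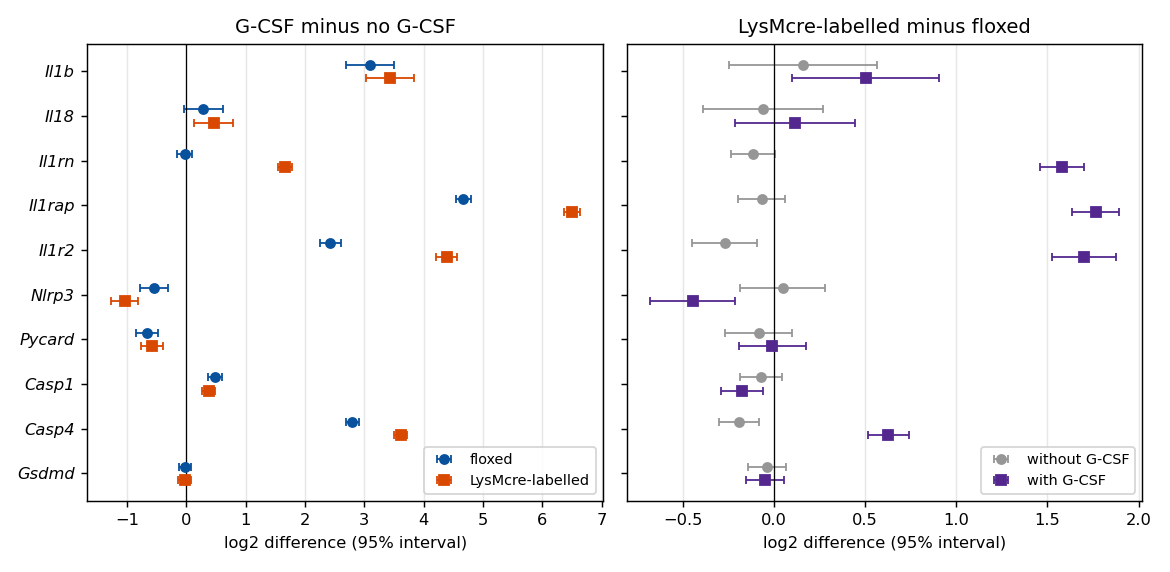
Log2 differences (horizontal axis, with 95% intervals from limma) of the 10 genes for G-CSF in each genotype (left) and for LysMcre-labelled minus floxed libraries without and with G-CSF (right). The largest genotype differences with G-CSF are those of Il1rap (1.76), Il1r2 (1.70) and Il1rn (1.58).

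Without G-CSF no difference between the genotypes was called in these genes. None of the 10 passed in limma, in edgeR or in DESeq2, where limma called 0.115% of all genes, and 2, Il1r2 and Casp4, had an unadjusted p under 0.05, which 3.34% of all genes had. Il1r2, Casp1 and Casp4 were lower in every LysMcre-labelled library than in any floxed one, 3 of 10 genes, beside 9.34% of all genes whose groups did not overlap. Their log2 differences were -0.27, -0.07 and -0.19 (SE 0.08, 0.05 and 0.05).

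The wider pathway was read from a list of 73 genes in 6 roles, of which 60 were in the table. G-CSF raised 21 and lowered 16 of the 60 in floxed cells and raised 25 and lowered 14 in LysMcre-labelled cells; 19 rose and 12 fell in both. Of all genes 24.1% rose and 24.6% fell in floxed and 31.1% rose and 31.6% fell in LysMcre-labelled cells. The median log2 difference of the 60 was 0.08 and 0.17, beside 0.00 for all genes in each. Between the genotypes with G-CSF 16 were higher and 10 lower, beside 17.1% and 18.9% of all genes, and without G-CSF none passed in limma, edgeR or DESeq2, with 2 at an unadjusted p under 0.05. Under equal totals the counts between genotypes with G-CSF were 14 higher and 15 lower, and in LysMcre-labelled cells 18 rose and 21 fell.

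Of the other ligands 2 of 7 were in the table. Il1f9, which encodes interleukin 36 gamma, rose from 6026 ± 110.3 to 12735 ± 209 normalized counts in floxed and from 5729.9 ± 359 to 12922 ± 71.5 in LysMcre-labelled libraries (SD, n = 3 each; log2 1.08 and 1.18, limma adjusted p = 1.38e-10 and 2e-11). With G-CSF its levels differed by 0.02 between the genotypes on the log2 scale (SE 0.05), and quantile normalization turned this to -0.15 with an adjusted p of 0.0450. Il1a, the other interleukin 1 agonist, was low, at 26.2 ± 10.1 and 25.5 ± 7.95 without and 33.4 ± 7.79 and 42.1 ± 7.49 with G-CSF, and did not pass in any comparison. Its G-CSF difference in LysMcre-labelled cells (log2 0.73, SE 0.31, limma adjusted p = 0.0564) did pass without floxed untreated replicate 2 (0.0233), without LysMcre-labelled untreated replicate 1 (0.0231) and in 3 other alternatives.

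Of 7 measured receptor and binding protein genes, 3 rose and 1 fell with G-CSF in floxed cells. In LysMcre-labelled cells 4 rose and 1 fell. The gene that fell was Il18bp in each genotype. Of all genes 24.1% rose and 24.6% fell in floxed and 31.1% and 31.6% in LysMcre-labelled cells. The signalling receptor Il1r1 was low, at 17.3 ± 7.77 and 16.0 ± 1.53 normalized counts without G-CSF and 22.9 ± 3.76 and 38.2 ± 0.675 with it (SD, n = 3 each, floxed first). It rose in LysMcre-labelled cells (log2 1.21, SE 0.31, limma adjusted p = 0.00304) and did not pass in floxed ones (adjusted p = 0.216); the interaction did not pass (adjusted p = 0.285) but did without floxed untreated replicate 3 (0.0238). Il1rl2, the interleukin 36 receptor chain that also pairs with the Il1rap product, was at 98.5 ± 9.47 in floxed and 173 ± 14.3 in LysMcre-labelled cells with G-CSF (log2 0.81, SE 0.15, limma adjusted p = 0.000678). The interleukin 18 receptor chains Il18rap and Il18r1 rose in floxed (log2 0.52 and 0.40) and in LysMcre-labelled cells (0.82 and 0.52). Il18bp, a secreted protein that neutralises interleukin 18, fell from 1615 ± 64.8 to 653 ± 58.2 in floxed and from 1511 ± 57.8 to 517 ± 7.32 in LysMcre-labelled libraries (SD, n = 3 each). Its limma adjusted p was 2.95e-10 and 1.69e-11.

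In receptor signalling 6 of 19 measured genes rose and 6 fell with G-CSF in floxed cells, and 9 rose and 5 fell in LysMcre-labelled ones. Of all genes 24.1% rose and 24.6% fell in the former and 31.1% and 31.6% in the latter. Myd88, the adaptor that joins interleukin 1 and Toll-like receptors to the IRAK kinases, went from 2666 ± 49.97 to 8562 ± 554 normalized counts in floxed and from 2687 ± 77.9 to 13172 ± 1020.2 in LysMcre-labelled libraries (SD, n = 3 each). The 2 Myd88 responses differed by 0.61 (SE 0.09, limma adjusted p = 0.000133 for the interaction). The kinase gene Irak4 rose in both genotypes (log2 0.99 and 0.95), and Irak2 fell in floxed cells (log2 -0.85, SE 0.11, limma adjusted p = 8.56e-06). In LysMcre-labelled cells the fall of Irak2 was smaller (log2 -0.26, SE 0.11, limma adjusted p = 0.047), a call lost in 12 of 24 alternatives, 9 of them leaving out 1 library: any untreated library, floxed G-CSF replicate 3, or LysMcre-labelled G-CSF replicate 1 or 2 (adjusted p from 0.0502 to 0.252). Among these 12 the largest shift came without LysMcre-labelled G-CSF replicate 1 (log2 -0.14, adjusted p = 0.252). Over all 24 alternatives the log2 difference ran from -0.52 to -0.14.

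Of 18 measured genes of other sensors and their partners, 4 rose, 5 fell and 9 were not called with G-CSF in floxed cells. In LysMcre-labelled cells 5 rose, 5 fell and 8 were not called. Of all genes 24.1% rose and 24.6% fell in floxed and 31.1% and 31.6% in LysMcre-labelled cells. Mefv, the gene of pyrin, went from 631 ± 71.7 to 5311 ± 385 normalized counts in floxed and from 647 ± 73.9 to 9874 ± 1003 in LysMcre-labelled libraries (SD, n = 3 each; log2 3.07 and 3.93, SE 0.10 each). Nlrp12 rose as well (log2 1.86 and 2.41). Aim2, a sensor of DNA, fell like Nlrp3 (log2 -1.17 and -1.71), as did Nek7, a kinase that binds NLRP3 (log2 -0.33 and -0.89). Each of these 4 passed in both genotypes and between the genotypes with G-CSF in limma, Mefv and Nlrp12 higher and Aim2 and Nek7 lower in LysMcre-labelled libraries (log2 0.89, 0.52, -0.47 and -0.59). Nlrc4, the partner of the NAIP sensors, did not pass in any comparison, at 71.8 ± 9.69 normalized counts in floxed and 67.6 ± 20.6 in LysMcre-labelled libraries with G-CSF. Without LysMcre-labelled G-CSF replicate 1 its G-CSF difference in those cells was -0.44 (adjusted p = 0.0493).

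Other cell death genes were called in both directions. Ripk3, the necroptosis kinase, rose from 151 ± 24.3 to 423 ± 58.2 normalized counts in floxed and from 165 ± 6.41 to 852 ± 60.8 in LysMcre-labelled libraries (SD, n = 3 each; interaction log2 0.87, SE 0.17, limma adjusted p = 0.00137). Ripk1 rose (log2 0.59 and 1.24), as did Casp8 (log2 0.31 and 0.88). Ninj1, which encodes the protein that ruptures the membrane of dying cells, fell in floxed cells (log2 -0.70, SE 0.07, limma adjusted p = 9.32e-07) and did not pass in LysMcre-labelled ones (log2 -0.10, SE 0.07, limma adjusted p = 0.228), and these responses differed (log2 0.59, SE 0.10, limma adjusted p = 0.000575). Without LysMcre-labelled untreated replicate 3 the LysMcre-labelled difference passed at -0.20 (adjusted p = 0.0108), as it did under quantile normalization (-0.24) and equal totals (-0.37). Of the granule proteases, Prtn3 and Ctsg rose in both genotypes (log2 1.37 and 1.02 in floxed, 0.97 and 0.74 in LysMcre-labelled cells). Elane, the neutrophil elastase gene, added after its values were seen, rose in floxed cells (log2 0.72, SE 0.22, limma adjusted p = 0.0133) and did not pass in LysMcre-labelled ones (log2 0.36, SE 0.22, limma adjusted p = 0.173); its interaction did not pass (adjusted p = 0.48). Serpinb1a, an inhibitor of these proteases, rose too (log2 0.62 and 0.39). Under equal totals Serpinb1a and Ctsg did not pass in LysMcre-labelled cells (adjusted p = 0.240 and 0.114), and under quantile normalization Serpinb1a did not (0.164). In both genotypes, Serpinb6a, another intracellular serpin gene, fell (log2 -0.79 and -1.17).

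**Figure D5:**
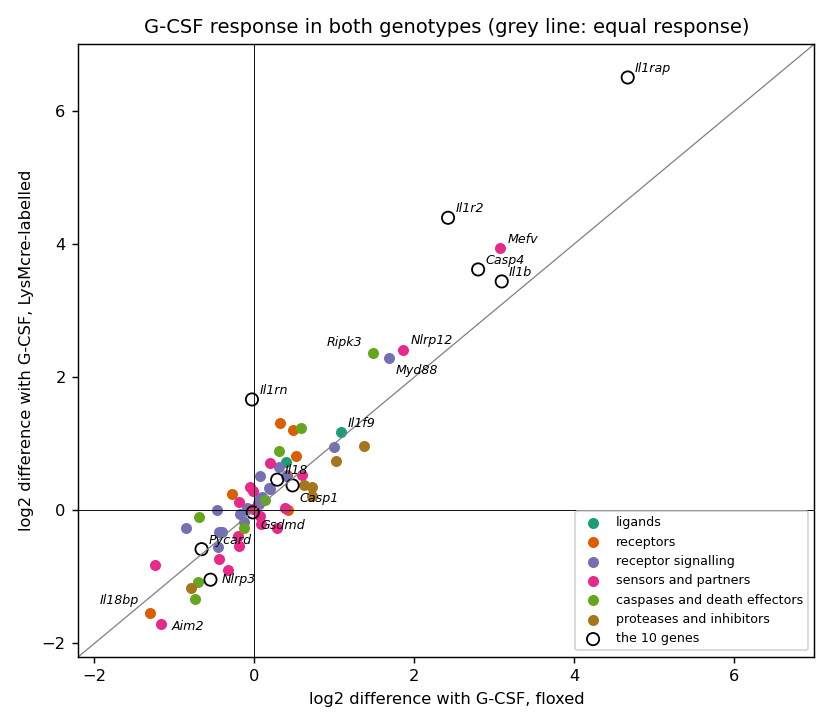
Log2 difference with G-CSF in floxed (horizontal) and LysMcre-labelled (vertical) libraries for 60 pathway genes, coloured by role, and for the 10 genes (open circles). Il1rn lies near 0 on the horizontal axis (-0.03) and at 1.66 on the vertical one; Il1rap, Il1r2 and Mefv lie above the line of equal response.

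Genes most alike each member were sought by Pearson correlation of log2 values over the 12 libraries, which fall into 4 groups, so r mostly reflects the group means. Il1rap ran closest to Tarm1 (r = 0.9996) and Ier3 (0.9996), and Il1r2 to Ets2 (0.9989) and Pfkfb3 (0.9986). Il1b was nearest to Zbtb41 (0.9961) and Fasn (0.9953), Casp4 to Ttc39b (0.9988) and Tmod3 (0.9988), and Il1rn to Marcksl1 (0.9924) and Cd9 (0.9916). Of the falling genes Nlrp3 was nearest to Hist1h1c (0.9867) and Ogt (0.9855), and Pycard to Tecpr1 (0.9888) and Hcfc2 (0.9838). The nearest genes were Slc35d2 (0.9811) and Zfp971 (0.9800) for Casp1, Dnajc11 (0.9475) and Exosc2 (0.9451) for Il18, and Zkscan3 (0.8314) and Trdmt1 (0.8207) for Gsdmd.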

How the data were processed

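RNA was measured in 12 libraries of sorted mouse neutrophils, 4 groups of 3. Groups came from the sample titles, except for the LysMcre G-CSF libraries, whose titles say both G-CSF and untreated and which were placed by their descriptions. The columns of LysMcre untreated replicates 2 and 3 both carry the number 3 in their names. Replicate numbers were taken from the titles. The deposited values are a signal unit, called normalized counts. Whole reads recovered from them show that each library's counts were divided by a factor of its own: 100.0% of values were whole multiples of the library's step at a tolerance of 0.01 read, and the steps equal median-of-ratios factors within 4.5e-11. Per the submitters' processing notes the genome was mm10. The aligner, the counter and the gene models behind the counts are not given in the sources used. Another 2 columns that name no sample were not used. Libraries of a group differed beyond counting error (chi-square per row 3.47 to 12.3).

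Values were taken as log2(value + 1), and 20 rows with a mean under 10 were left out. One model of the 4 groups was fitted in limma 3.58.1 (R 4.3.3, trended prior, 8 residual degrees of freedom), with two-sided p-values and Benjamini-Hochberg adjustment over 13915 genes at 0.05. On this scale folds of low genes come out too small. Tested were the genotype difference in untreated and in treated cells, the response to G-CSF of either genotype, and the interaction. The alternatives were other pseudocounts, filters, scalings and priors, edgeR 4.0.16 and DESeq2 1.42.0 on recovered reads, a replicate block, the 2 compared groups alone, and leaving out each library. The fit was tested on simulated reads. The 10 genes and the lists were chosen with earlier results of these data known. Beside the 10, the text names for each comparison and role up to 2 pathway genes of largest difference that passed and reached a group mean of 50, plus Il1a, Il1r1, Myd88, Aim2, Nlrc4 and Casp8, and the 2 genes most correlated with each of the 10 among genes with a mean of at least 50, predicted genes left out; 1 gene that this rule picks is not reported here. Il1f9 was matched through its synonym Il36g, and Gsdme as Dfna5. Exon lengths and positions are from GENCODE M21.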

Additional observations from a re-analysis of the deposited data

Results flagged for a closer look

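The G-CSF responses of 5 of the 10 genes differed between floxed and LysMcre-labelled libraries by the interaction test in limma. That test called 10.9% of all genes higher and 11.5% lower. The difference, LysMcre-labelled minus floxed on the log2 scale, was 1.97 for the decoy receptor Il1r2, 1.83 for the accessory chain Il1rap and 1.69 for the antagonist Il1rn (limma adjusted p = 4.74e-08, 1.13e-08 and 1.13e-08). It was 0.82 for Casp4 and -0.49 for Nlrp3 (limma adjusted p = 1.68e-06 and 0.0314). For Il1r2, Il1rap, Il1rn and Casp4 the test passed in all 23 alternatives, and for Nlrp3 in 16 of 23. Il1b, the agonist, had an interaction of 0.34 with a 95% interval of -0.23 to 0.92; a difference between its interaction and those of Il1rn or Il1r2 was not tested.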

How the results depend on the processing

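Of 50 results for the 10 genes, 42 kept their side of the threshold in all of up to 24 alternatives and 8 changed side in at least 1. None that passed changed its sign; some differences near 0 that did not pass did, such as that of Il1rn with G-CSF in floxed cells. The count of the 10 genes called stayed within 1.5 times in each comparison. Under the replicate block the calls were 0, 7, 7, 9 and 5 for genotype without G-CSF, genotype with G-CSF, G-CSF in floxed, G-CSF in LysMcre-labelled cells and the interaction, against 0, 6, 7, 9 and 5; Il1b (adjusted p = 0.0304) was the gene added and no other call among the 10 changed. Whether the replicate numbers pair the libraries is not known. Of 18 same-numbered pairs, 4 had deviations correlated over 0.1 (r from -0.18 to 0.32). On average, 6 of 12 libraries correlated best with their own number. Within floxed libraries, each untreated library correlated best with the G-CSF library of its number (r = 0.321, 0.199 and 0.061). In LysMcre-labelled libraries this held for replicate 1 (0.214) and not for replicates 2 and 3 (-0.032 and 0.03). The genotype difference of Il1b with G-CSF passed in 10 of 24 alternatives (adjusted p from 0.00035 to 0.284), that of Gsdmd under quantile normalization and equal totals, and the Casp1 interaction under equal totals (-0.27, adjusted p = 0.0266). For Il1f9, the genotype difference with G-CSF turned from 0.02 to -0.15 under quantile normalization; the cause was not tested. Among 145 results for 29 other genes this was the 1 that passed with the opposite sign, and 122 kept their side of the threshold in every alternative; others near 0 changed sign without passing. Counts over all genes without G-CSF were 16 in limma as first described, 28 in DESeq2, 9 with a constant prior, 9 without floxed untreated replicate 1 and 10 without LysMcre-labelled untreated replicate 1. Depth limits Il18 most among the 10 genes, with 58 reads in the library where it was lowest.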

Other observations

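Within groups, Il1b and Nlrp3 moved together: over the 12 libraries their deviations from the group means had r = 0.93. That was the highest r among all pairs of the 10 genes, so it is an extreme of many values. It is given as a description because the libraries share their group's mean and scaling. Both were lowest in replicate 3 of each untreated group, where the log2 deviations of Il1b were -0.24 (floxed) and -0.64 (LysMcre-labelled) and those of Nlrp3 -0.14 and -0.32. For both genes LysMcre-labelled untreated replicate 3 deviated most of the 12 libraries, and how far r rests on that library was not tested. With G-CSF the deviations of Il1b lay between -0.10 and 0.11. Deviations of Il1b and Pycard over the same 12 libraries had r = -0.77, the lowest among all those pairs.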
